A study of Mus musculus with 8 samples.

Results

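Male and female mouse livers labelled as liver-specific Bcl6-deficient were compared with each other to describe which autosomal genes, those outside the X and Y chromosomes, still differed by sex and which no longer did. The comparison set 2 male (XY) against 2 female (XX) livers, replicates 3 and 4 of each group. The same comparison in 2 male and 2 female wild-type livers served as the reference. Members were all autosomal genes that had a probe rated well above background in every array of some group, of the 4 groups in all. There were 15613 such genes, read from 21964 probes, of 23870 genes measured. A further 509 genes were X- or Y-linked, and 7748 had no chromosome in the tables used and were kept apart. All 8 mice were of strain C57BL6 and 10 to 11 weeks old, and RNA came from whole liver, so fewer cells of a type and less RNA per cell cannot be told apart. The labels give no driver for the liver-specific deletion, no deleted exon and no statement that wild-type mice were littermates. They also do not say that replicates came from separate experiments, so p-values measure the spread between these samples, with 2 arrays a group.

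Sex differences in mouse liver are set largely by the pattern of growth hormone release from the pituitary, which is pulsatile in males and nearly continuous in females. Pulses activate the transcription factor STAT5, which raises male-biased genes and restrains many female-biased ones. BCL6 is a zinc-finger repressor, more abundant in male than in female liver, that binds many of the same DNA sites as STAT5. Genes under this control include cytochromes P450 and sulfotransferases, which modify steroids and drugs, and secreted proteins such as major urinary proteins and complement components.

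Each level is a log2 signal after the 75th percentile of its own array was subtracted, and a sex difference is male minus female on that scale, with its standard error (SE) from limma over all 8 arrays. A gene was called where the p-value adjusted by Benjamini-Hochberg over all 23870 genes was under 0.05. On each array 28073 to 30624 probes (49.6% to 54.1%) were well above background, and replicate arrays correlated at 0.990 to 0.994 across genes. Of the 4 livers compared, each sex lay once in each of 2 slide columns and once in each slide row. The targeted gene did not bear out the label. Bcl6, on chromosome 16, was at 3.20 and 3.55 in wild-type males and 2.02 and 4.16 in wild-type females. It was at 4.31 and 4.86 in males labelled Bcl6-deficient and 4.04 and 4.82 in females labelled Bcl6-deficient, so that it was lower than its wild-type mean in neither sex. The array carries 1 Bcl6 probe whose position relative to the deletion is not known here, so these groups are called "livers labelled Bcl6-deficient" or "labelled livers" throughout. The sex labels did hold in them. Xist differed by -6.87 ± 0.24 (SE) between the sexes, the Y-linked Kdm5d by 6.02 ± 0.52 and Ddx3y by 5.45 ± 0.38. All 17 hepatocyte markers passed the filter on background, and their summed level was 13.1 to 13.3 on the 4 labelled arrays.

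Promoter windows are shown for the genes at both ends of the comparison, those that still differed and those that no longer did, since STAT5 and BCL6 bind related motifs. Each runs from 250 bases before to 50 bases after the start site in RefSeq (GRCm38.p6), 300 bases in all, written 5′ to 3′ on the gene's strand. Capitals mark matches to TTCNNNGAA, the palindromic STAT-type motif, which reads the same on both strands. The first set holds Susd4 (chr1:182763966-182764265, plus strand), Slc10a2 (chr8:5105238-5105537, minus strand) and Fndc5 (chr4:129136749-129137048, plus strand), 3 of the genes that differed by sex in labelled livers. Bmp7, another, has no window in the table. None of these 3 windows holds the motif.
Susd4: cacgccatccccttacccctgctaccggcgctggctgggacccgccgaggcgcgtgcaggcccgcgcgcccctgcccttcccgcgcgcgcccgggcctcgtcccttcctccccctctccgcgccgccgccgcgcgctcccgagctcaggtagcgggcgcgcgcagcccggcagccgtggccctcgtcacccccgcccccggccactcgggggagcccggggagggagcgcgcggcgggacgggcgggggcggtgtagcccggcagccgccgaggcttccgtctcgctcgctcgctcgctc
Slc10a2: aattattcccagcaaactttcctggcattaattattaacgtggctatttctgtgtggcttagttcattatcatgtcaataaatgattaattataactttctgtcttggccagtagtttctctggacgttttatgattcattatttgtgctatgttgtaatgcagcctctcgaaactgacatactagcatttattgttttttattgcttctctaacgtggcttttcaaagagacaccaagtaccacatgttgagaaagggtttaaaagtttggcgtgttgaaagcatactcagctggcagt
Fndc5: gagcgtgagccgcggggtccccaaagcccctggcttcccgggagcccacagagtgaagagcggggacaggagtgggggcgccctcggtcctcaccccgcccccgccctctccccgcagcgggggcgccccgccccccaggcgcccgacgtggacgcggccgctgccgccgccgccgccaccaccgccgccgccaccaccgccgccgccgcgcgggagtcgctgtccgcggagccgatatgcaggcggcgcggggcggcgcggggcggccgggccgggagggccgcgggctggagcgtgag
The second set holds the 3 genes with the largest wild-type sex difference, among the named genes that no longer differed, whose window has a match. They are A1bg (chr15:60921221-60921520, minus strand), Slc22a26 (chr19:7802618-7802917, minus strand) and Sult3a1 (chr10:33857472-33857771, plus strand), all higher in wild-type females.
A1bg: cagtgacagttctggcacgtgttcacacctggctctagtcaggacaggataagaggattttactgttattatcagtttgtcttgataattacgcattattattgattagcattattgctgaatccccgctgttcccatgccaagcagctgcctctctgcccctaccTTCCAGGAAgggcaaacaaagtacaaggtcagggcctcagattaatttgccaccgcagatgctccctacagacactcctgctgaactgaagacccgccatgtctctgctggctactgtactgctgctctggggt
Slc22a26: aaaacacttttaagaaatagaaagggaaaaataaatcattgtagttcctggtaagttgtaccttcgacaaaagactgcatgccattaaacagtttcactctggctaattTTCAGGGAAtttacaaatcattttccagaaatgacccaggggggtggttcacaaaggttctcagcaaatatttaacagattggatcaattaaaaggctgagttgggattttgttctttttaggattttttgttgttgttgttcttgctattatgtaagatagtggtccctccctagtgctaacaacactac
Sult3a1: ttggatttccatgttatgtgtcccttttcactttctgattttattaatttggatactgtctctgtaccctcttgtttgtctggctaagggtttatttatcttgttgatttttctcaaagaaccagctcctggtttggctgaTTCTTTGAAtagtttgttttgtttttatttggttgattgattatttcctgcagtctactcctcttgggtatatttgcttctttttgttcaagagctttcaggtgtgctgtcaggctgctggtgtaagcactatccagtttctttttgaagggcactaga
The match begins 84 bases before the start site in A1bg (TTCCAGGAA), 141 bases before it in Slc22a26 (TTCAGGGAA) and 109 bases before it in Sult3a1 (TTCTTTGAA). The A1bg match also fits the narrower BCL6-type pattern TTCCTNGAA, searched with its reverse complement TTCNAGGAA, which is a subset of the first motif. Of all 27025 promoter windows, 8.47% held TTCNNNGAA and 1.61% the BCL6-type pattern. Of the windows of autosomal genes tested, 7.22% and 1.33% did. Among genes that differed by sex in wild-type livers it was 9.51% and 3.02%. Of 78 windows of female-biased genes whose difference was lost, 8 (10.3%) and 5 (6.41%) held them. Of 15 windows of male-biased ones, 0 held either. Of all 93 windows of genes whose difference was lost, 8 (8.6%) held TTCNNNGAA. The second set shown was chosen for having a match and the first was not, so the 2 sets cannot be compared for it. A match describes letters in a short window and is not a binding site.

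In the labelled livers 5 autosomal genes differed by sex, where 592 did in wild-type livers. The 5, 0.032% of 15613, were 2 higher in males, Slc10a2 among them, and 3 higher in females, Susd4, Fndc5 and Bmp7. The 592, 3.79%, were 265 higher in males and 327 higher in females. No autosomal gene was called in both genotype labels with the same sign. The count in labelled livers moved with single arrays: it was 21 without labelled male replicate 3, 1 without wild-type male replicate 3 or 4, 2 without labelled female replicate 4 and 3 without labelled female replicate 3 or labelled male replicate 4. The wild-type count was 270, 331 and 336 without wild-type male replicate 3, wild-type male replicate 4 and wild-type female replicate 4. Of the 29 X- and Y-linked genes called in wild-type livers, 6 were called again in the labelled livers, with the same sign (Xist, Kdm5d, Ddx3y, Uty, Eif2s3x and Eif2s3y). Both sex differences have the same SE for a gene, because 1 spread was fitted over all 8 arrays. The replicates of labelled livers were no noisier than those of wild-type livers: the median absolute difference between 2 replicates was 0.174 in males and 0.148 in females labelled Bcl6-deficient, and 0.177 and 0.196 in the wild-type groups.

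The sizes of the differences shrank as well as the count. Their standard deviation over the 15613 genes was 0.293 in labelled livers and 0.59 in wild-type livers. At least 2-fold differences were seen in 203 genes (1.3%) and 715 genes (4.58%). At an unadjusted p under 0.05, 757 genes (4.85%) differed in labelled livers, beside the nominal 5% of that threshold, against 3155 (20.2%) in wild-type livers. The adjusted threshold itself moves with how many genes differ. At the largest unadjusted p that was called in wild-type livers, 0.00168, labelled livers had 61 genes (0.391%) and wild-type livers 592. Of those 61, males were higher in 38 and females in 23, and 48 were not called in wild-type livers. Across the 15613 genes the 2 sex differences correlated at r = 0.0767, a description only, since genes share arrays and are not independent.

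**Figure D1:**
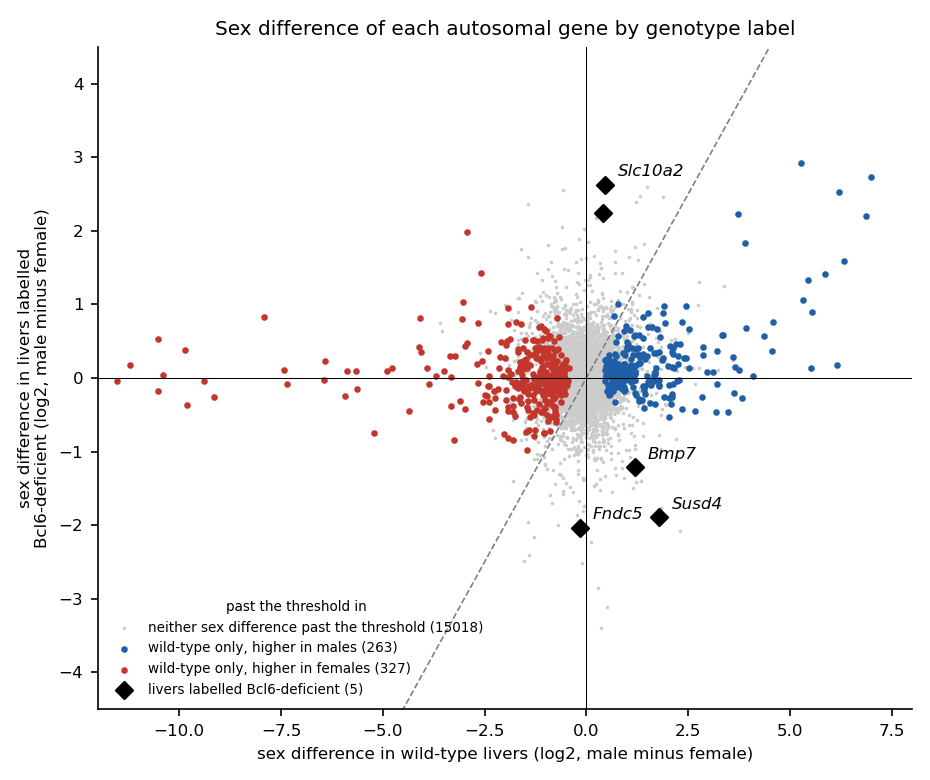
Sex difference of each of the 15613 autosomal genes in wild-type livers (x axis) and in livers labelled Bcl6-deficient (y axis), both log2 male minus female, on axes of different scale; the dashed line marks equal differences. Genes called only in wild-type livers (blue, 263 higher in males; red, 327 higher in females) spread far more along the x axis than along the y axis, with a few male-biased genes between 1 and 3 on the latter, and the 5 genes called in labelled livers (black diamonds) lie off the dashed line.

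Susd4, on chromosome 1, encodes a membrane protein that limits complement activation and is known as a male-biased liver gene. Its levels were 4.63 and 4.98 in wild-type males and 3.07 and 2.97 in wild-type females. In labelled livers they were 0.90 and 0.85 in males and 2.91 and 2.63 in females. The groups do not overlap in either label, and males, the higher sex in wild-type livers, were the lower one in labelled livers. The labelled difference was -1.89 ± 0.15 (adjusted p = 0.00191), the wild-type difference was 1.78 ± 0.15 (adjusted p = 0.000387), and the change between them was -3.68 ± 0.21 (adjusted p = 0.000138, limma). The level in males was 3.93 lower in labelled than in wild-type livers, and that in females 0.25 lower (adjusted p = 0.408). Susd4 was called again when any 1 of the 8 arrays was left out. A second, dimmer Susd4 probe was at -2.75 and -5.94 in labelled males and -2.56 and -3.10 in labelled females, lower on average in males but overlapping. Averaging both probes gave a difference of -1.70, near that of the brighter probe, but ended the call (adjusted p = 0.598).

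Bmp7, on chromosome 2, a secreted growth factor of the bone morphogenetic protein family, also changed direction. Its levels were 0.54 and 0.64 in wild-type males and -0.64 and -0.57 in wild-type females. They were 2.47 and 2.21 in males and 3.71 and 3.38 in females labelled Bcl6-deficient. Both sexes were thus higher in labelled livers, females by 4.15 and males by 1.75. The labelled sex difference was -1.21 ± 0.15 (adjusted p = 0.0384), the wild-type one 1.19 ± 0.15 (adjusted p = 0.00374), and the change -2.40 ± 0.21 (adjusted p = 0.00154). The labelled call was marginal: without any 1 of the 8 arrays the adjusted p was 0.0539 to 0.263. In those fits the labelled difference ran from -1.37 to -1.04 and the wild-type one from 1.14 to 1.24. The test of the change between the labels passed in each of them. That test does not ask whether the direction reversed.

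Fndc5, on chromosome 4, encodes the membrane precursor of the secreted peptide irisin. It was low and alike in the sexes of wild-type liver, at -2.25 and -2.41 in males and -2.17 and -2.17 in females. In labelled livers it was -1.51 and -2.14 in males and 0.14 and 0.28 in females. The labelled females stood above all other livers. The difference was -2.03 ± 0.22 (adjusted p = 0.0184), and its change from wild-type livers -1.87 ± 0.32 (adjusted p = 0.0399). Without labelled female replicate 3 or 4, labelled male replicate 4, or wild-type male replicate 3 or 4, the adjusted p of the difference was 0.0784 to 0.179. With normexp background correction the labelled difference was -1.22. The adjusted p of the change passed the threshold when labelled male replicate 3 was left out and was 0.0797 to 0.181 without each other array.

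Slc10a2, on chromosome 8, encodes the sodium-dependent bile acid transporter of ileum and bile duct cells. Wild-type livers had 1.90 and 2.11 in males and 1.73 and 1.34 in females, a difference of 0.46 ± 0.28 (adjusted p = 0.406). Labelled livers had 0.01 and 0.95 in males and -1.98 and -2.31 in females. Every labelled liver was below every wild-type liver, and the females most so. The labelled difference was 2.63 ± 0.28 (adjusted p = 0.0184), a 6.18-fold higher signal in males. The change from wild-type livers, 2.16 ± 0.40, did not pass (adjusted p = 0.0591), so Slc10a2 cannot be said to differ by sex in labelled livers more than in wild-type ones. The call ended without wild-type male replicate 3 or 4 or labelled female replicate 3 or 4 (adjusted p 0.0818 to 0.133), and normexp background correction gave a labelled difference of 1.60. Bile duct cells carry this transporter. Of 8 measured cholangiocyte markers 2 were higher in labelled males (median -0.17). Against the female mean, 1 of the 8 was higher in male replicate 3 (median -0.56) and 5 in male replicate 4 (median 0.10). Their summed level was 3.49 and 3.87 in labelled males and 3.60 and 3.33 in labelled females. Their part in the result was not tested.

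Scd1, the stearoyl-CoA desaturase of lipid synthesis, was higher in labelled males without passing: 5.44 and 6.59 in labelled males and 4.34 and 4.36 in labelled females (1.66 ± 0.30, adjusted p = 0.252), and 7.10 to 7.53 in the 4 wild-type livers.

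**Figure D2:**
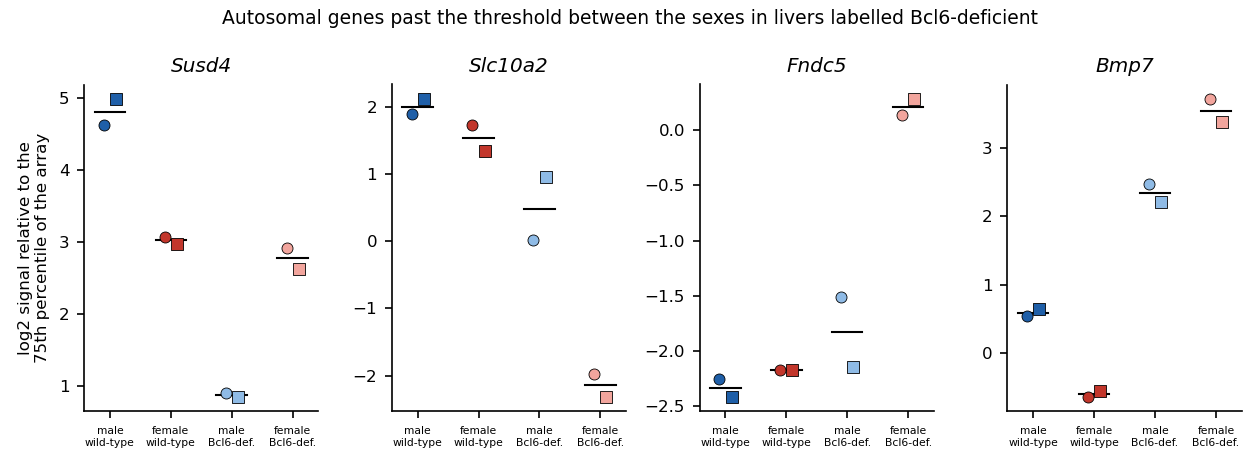
Levels of 4 of the 5 autosomal genes that differed by sex in livers labelled Bcl6-deficient, on all 8 arrays (log2 signal minus the array's 75th percentile, 1 scale per gene; circles replicate 3, squares replicate 4, bars group means of n = 2). Susd4 and Bmp7 have opposite orders of the sexes in wild-type and labelled livers, and in Fndc5 and Slc10a2 the labelled females stand apart from the wild-type livers.

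Several genes missed the threshold narrowly. Gm4956, a predicted gene on chromosome 1, was at -0.48 and 0.12 in labelled males and -1.68 and -1.51 in labelled females (1.42 ± 0.20, adjusted p = 0.0773). Nr0b2, the bile acid-induced nuclear corepressor SHP, was at 1.61 and 1.73 in males and 0.89 and 0.75 in females (0.85 ± 0.12, adjusted p = 0.0925). Smo, the Hedgehog signal transducer, was at 0.33 and 0.28 in males and 1.34 and 1.23 in females (-0.98 ± 0.14, adjusted p = 0.0925). Zfp949 (1.58) and Dreh (2.40, not well above background in labelled females, at least 1.58-fold) shared that adjusted p of 0.0925.

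For 130 of the 592 genes the wild-type difference was called, the labelled one was not, and the change between them passed as well. These are called lost here. They were 98 female-biased and 32 male-biased genes, and the test of the change called 141 autosomal genes in all (0.903%). The median size of their difference was 1.94 in wild-type and 0.27 in labelled livers. For 90 of them the 95% interval of the labelled difference lay within 1 log2 unit of 0, so that a 2-fold difference in either direction was outside it. That 0 of the 130 kept 50% or more of the wild-type difference is nearly fixed by the definition of lost. A gene that kept as much would hardly pass the test of the change without being called in labelled livers. The count of lost genes was 61 without labelled female replicate 3 or 4, 78 without wild-type male replicate 3 and 82 without labelled male replicate 4. The choice of these genes rests on these same arrays, so their medians and counts describe them and test nothing.

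In most of the female-biased genes labelled males lay nearer the wild-type female than the wild-type male level. The mean of labelled males was nearer wild-type females in 81 of the 98 and nearer wild-type males in 17, and that of labelled females was nearer wild-type females in 73 and nearer wild-type males in 25. The median levels of the 98 were 0.17 in wild-type males, 2.71 in wild-type females, 2.60 in labelled males and 2.44 in labelled females. Labelled males were higher than labelled females in 67 of the 98 (median difference 0.18), beside 54.5% of all autosomal genes. At an unadjusted p under 0.05, 32 of the 98 differed in labelled livers, 4 of them with the wild-type sign, beside 4.85% of all autosomal genes. The labelled difference had a part in the choice of the 98, so these counts test nothing. Slc22a26, on chromosome 19, of the organic anion transporter family, gave clear values. It was -6.03 and -5.77 in wild-type males, below background, and 4.28 and 3.65 in wild-type females, at least 240.9-fold higher (the female mean over the dimmest signal that counted as well above background on the male arrays). Labelled livers had 4.24 and 4.10 in males and 3.82 and 3.78 in females. All 4 labelled values lay between those of the wild-type females, and the sexes differed by 0.37 ± 0.20 (95% interval -0.07 to 0.82, adjusted p = 1). The change in the sex difference was 10.24 ± 0.28. Where wild-type males are below background, as here, such a change depends on the dim signal and is a measured value rather than a bound.

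The cytochromes P450 of the Cyp2b and Cyp3a families oxidise steroids and drugs. Cyp2b9 was -0.38 and 1.14 in wild-type males and 7.66 and 7.79 in wild-type females. In labelled livers it was 6.98 and 6.76 in males and 6.93 and 6.99 in females, overlapping (-0.09 ± 0.38, change 7.26, adjusted p = 0.000577). Cyp2b10 gave the same picture, from 0.95 and 2.38 in wild-type males to 7.18 and 7.06 in labelled males, beside 7.24 and 7.47 in labelled females. Cyp2b13 met in the middle. Wild-type males were below background at -5.54 and -4.68, wild-type females were at 6.10 and 6.75, and the labelled livers held 2.14 and 1.83 in males and 2.33 and 1.74 in females. Its level was 4.39 lower in labelled than in wild-type females (adjusted p = 6.40e-05) while that of males was higher. Cyp3a44 was 3.80 and 2.36 in wild-type females and 6.42 and 5.63 in labelled males, against 6.17 and 6.39 in labelled females. Cyp17a1, the steroid 17-hydroxylase, was 4.83 and 4.88 in labelled males and 4.82 and 4.87 in labelled females (0.01 ± 0.20), where the wild-type difference was -3.33. Nearly identical copies in these families may share probe signal, so the share of each gene is uncertain.

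Conjugation and transport genes followed. Sult3a1, a sulfotransferase, was below background in wild-type males (-5.93 and -5.67), 4.59 and 3.45 in wild-type females, 3.86 and 3.38 in labelled males and 4.61 and 3.37 in labelled females (-0.37 ± 0.44). A1bg, a plasma glycoprotein, was 7.04 and 6.88 in labelled males and 7.17 and 7.09 in labelled females, all above the 5.93 and 3.30 of wild-type females. Sult2a2 and Sult2a6, hydroxysteroid sulfotransferases, were lost too, but wild-type females disagreed (2.22 and 6.46 for Sult2a2, 1.97 and 6.37 for Sult2a6). Leaving out 5 of the 8 arrays in turn for Sult2a2, and 6 for Sult2a6, ended the call of their change (adjusted p up to 0.0734 and 0.0891). Hao2, a peroxisomal hydroxyacid oxidase, went past equality: 3.18 and 3.48 in labelled males against 2.46 and 2.56 in labelled females (0.82 ± 0.15, unadjusted p = 0.000486, adjusted p = 0.276), after -6.22 and -6.05 in wild-type males and 1.69 and 1.90 in wild-type females. Cux2, a transcription factor of female liver, was -6.07 and -5.79 in wild-type males, -0.56 and -0.03 in wild-type females, 2.06 and 2.11 in labelled males and 2.48 and 1.99 in labelled females.

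In the male-biased genes the loss came mostly from males at or below the female level. The median levels of the 32 were 3.25 in wild-type males, 0.47 in wild-type females, -0.65 in labelled males and -0.93 in labelled females. The mean of labelled males lay below both wild-type means in 19 of the 32, and that of labelled females in 21. The comparisons of labels and of sexes share arrays, so these placements are not independent of the choice of genes.

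Elovl3, on chromosome 19, elongates long-chain fatty acids. It was 6.82 and 6.46 in wild-type males, 1.62 and 0.79 in wild-type females, -3.70 and -3.46 in labelled males and -5.13 and -4.70, below background, in labelled females. The labelled sexes still did not overlap (1.34 ± 0.28, at least 1.60-fold, unadjusted p = 0.000981, adjusted p = 0.393), but at a level far under that of either wild-type sex. Cyp2d9, a steroid hydroxylase, was 7.57 and 7.54 in wild-type males, 4.41 and 4.28 in wild-type females, 3.35 and 2.98 in labelled males and 3.31 and 3.17 in labelled females, with a change of -3.28 ± 0.19 (adjusted p = 0.00014). Nat8, an N-acetyltransferase, was 5.26 and 5.10 in wild-type males and 1.11 and 0.06 in wild-type females. Labelled males had -0.75 and -0.29 and labelled females -1.47 and -1.09, lower than either (0.76 ± 0.31, adjusted p = 1). Cyp2d34 read -3.28 and -3.94 in labelled males and -3.71 and -3.56 in labelled females (0.02 ± 0.23, 1 male array above background), after 3.17 and 2.88 in wild-type males. Gstp1, a glutathione transferase, differed: labelled males (6.39 and 6.43) and females (6.16 and 5.94) lay between wild-type males (8.43 and 8.10) and wild-type females (5.06 and 5.07).

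Other large losses were in Nat8f5, Serpina4-ps1, Tff3 (a trefoil peptide), Lama3 (a laminin chain) and 4930432K21Rik, whose wild-type differences ran from 3.59 to 6.34. Nat8f5 was well above background on 1 labelled male and 0 labelled female arrays, and Lama3 on 1 labelled male and 1 wild-type female array. The sizes of both thus depend on dim signals. Several of these losses rest on few arrays. The change of Nat8f5 ended without wild-type male replicate 3 (adjusted p = 0.0543) and that of 4930432K21Rik without labelled female replicate 3 (0.0521). That of Tff3 and that of Serpina4-ps1 each ended without 6 of the 8 arrays left out in turn. Capn8, a calpain, was well above background in wild-type males alone (-0.52 and -0.89, at least 11.98-fold over wild-type females), so its labelled difference and its change cannot be read. Its call of a change ended without wild-type male replicate 3 or 4 (adjusted p 0.0543 and 0.247).

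**Figure D3:**
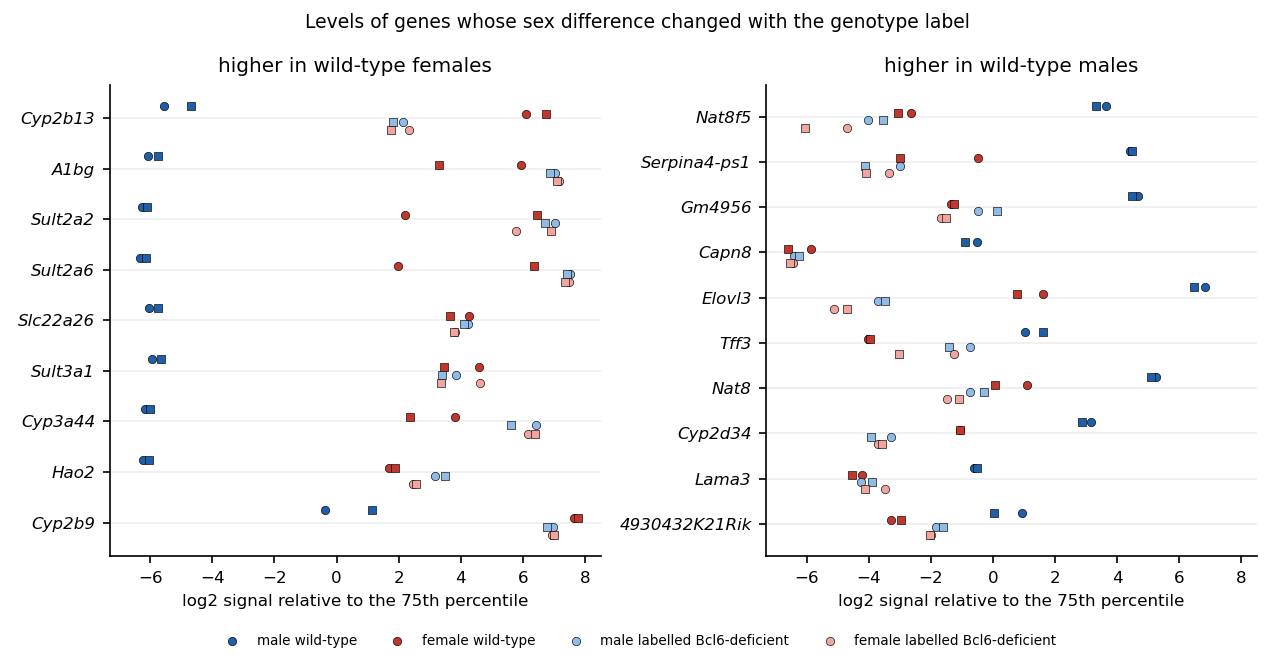
Levels on all 8 arrays (log2 signal minus the array's 75th percentile; circles replicate 3, squares replicate 4; colours give the group) of lost genes with the largest wild-type differences, female-biased on the left and male-biased on the right. On the left labelled males sit with or near labelled females, as in Slc22a26 at 3.78 to 4.24, though in Hao2 they are higher (3.18 and 3.48 against 2.46 and 2.56). Wild-type males lie at or near background there, except in Cyp2b9 (-0.38 and 1.14). On the right the wild-type males stand alone at the high end.

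The other 460 genes called in wild-type livers could not be placed. Their labelled difference missed the threshold, and so did the change. For 362 the 95% interval of the labelled difference lay within 1 log2 unit of 0. The labelled difference kept the wild-type sign in 301 and was at least 50% of the wild-type value in 32. By direction, 162 of 231 male-biased genes were still higher in labelled males, and 139 of 229 female-biased genes higher in labelled females. Over all autosomal genes 54.5% were higher in labelled males, and 56.2% in wild-type males. These genes were placed here partly by their labelled difference, so the counts describe them and test nothing.

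A male-side residue was largest where the wild-type difference was largest. Of all 265 male-biased genes 180 (67.9%) were higher in labelled males, and of all 327 female-biased genes 170 were higher in labelled females. Of 30 male-biased genes with a wild-type difference of 3 or more, 25 were higher in labelled males, with a median labelled difference of 0.58. In 118 genes with a difference of 1 to 3 the median was 0.10, and in 117 with a smaller one 0.07. In female-biased genes the sizes did not order this way: in 37 genes with a difference of 3 or more the median labelled difference was 0.10, toward males, and in 157 with 1 to 3 it was -0.03. These genes were chosen by their wild-type difference, which shares no array with the labelled one, but the spread and the background filter behind that choice came from all 8 arrays.

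Genes behind that residue include Gm12718, a predicted gene, at -2.28 and -1.68 in labelled males and below background in labelled females (at least 4.86-fold, unadjusted p = 0.000591, adjusted p = 0.303). Cib3, of a calcium-binding protein family, was at -0.08 and 1.05 in males and -1.41 and -1.30 in females (1.83 ± 0.38, wild-type 3.90). Cyp4a12a, a fatty acid omega-hydroxylase, was at -2.54 and -0.38 in labelled males and -3.37 and -3.96 in labelled females (2.20 ± 0.78, adjusted p = 0.915). Its wild-type levels were 6.14 and 6.24 in males and 0.49 and -1.85 in females. Its copy Cyp4a12b was at -2.07 and 0.01 in males and -2.85 and -4.67 in females. Serpina9, a protease inhibitor, was at -0.24 and -0.11 in males and -3.14 and -1.67 in females. Hsd3b5, a steroid dehydrogenase, was at -1.96 and -3.18 in males and below background in females (at least 3.24-fold, adjusted p = 1). In each of these 6 genes both labelled males were above both labelled females, an order without overlap that 32.9% of all autosomal genes had in either direction, and none passed the threshold.

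A few differences were of like size in both labels. Nr0b2 was 0.67 in wild-type and 0.85 in labelled livers, and Cep85 0.77 and 1.01 (unadjusted p = 0.000157, adjusted p = 0.15). Lgr5, a Wnt-pathway receptor of hepatocytes near the central vein, had -1.02 and -1.17 without a call in either. Irs2, Oat and G6pc had female-side differences of the same sign in both labels. Their values were smaller in labelled livers, but the change did not pass in any (adjusted p 0.534 to 0.852, limma). Irs2, an insulin receptor substrate, had -0.95 in wild-type and -0.59 in labelled livers, Oat, ornithine aminotransferase, -0.75 and -0.59, and the glucose-6-phosphatase gene G6pc -1.03 and -0.75. Their unadjusted p-values in labelled livers were 0.00182, 0.00236 and 0.0037. In all, 73 of the 592 genes had the wild-type sign and an unadjusted p under 0.05 in labelled livers, 40 male-biased and 33 female-biased. Over all 15613 autosomal genes, called in wild-type livers or not, 425 did. At the unadjusted p of 0.00168, which 61 of all 15613 genes (0.391%) passed with either sign, there were 8 of the 592. They were Gm4956, Nr0b2, Cep85, Gm12718, Elovl3, Cib3, Clstn3 and Zfp809, all male-biased. At that p another 5 had the opposite sign: Susd4, Bmp7, Gdf15, Hao2 and Rcan2.

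**Figure D4:**
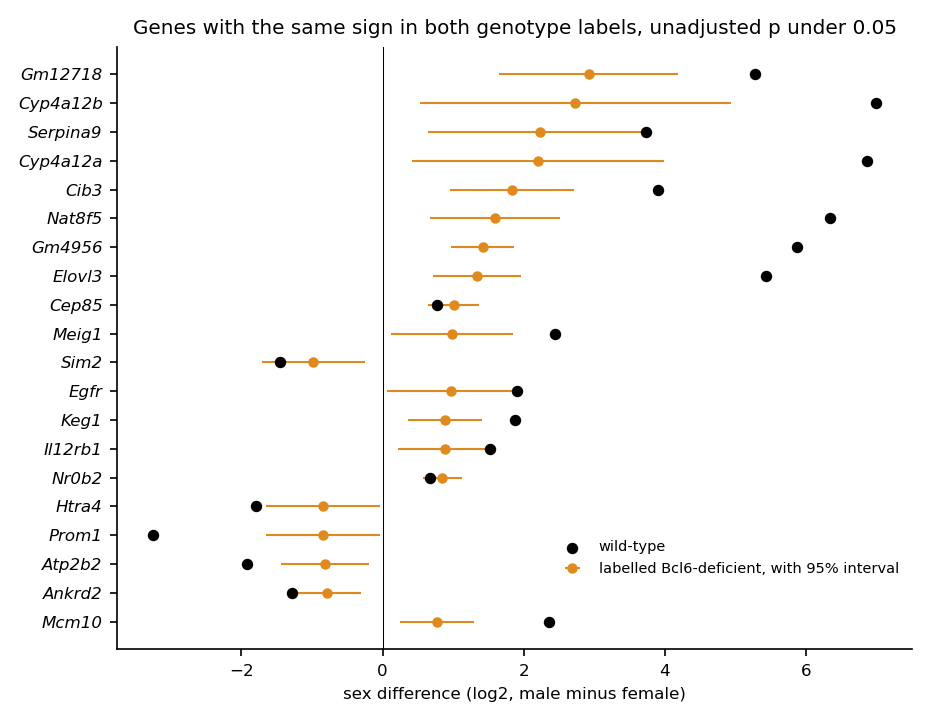
The 20 genes with a symbol and the largest labelled difference among the 73 that kept the wild-type sign at an unadjusted p under 0.05, shown as log2 male minus female in wild-type livers (black) and in livers labelled Bcl6-deficient (orange, with the 95% interval; n = 2 arrays a group). In Gm12718, Cyp4a12b and Cyp4a12a the labelled difference is 2.92, 2.73 and 2.20 against 5.28, 6.99 and 6.87 in wild-type livers, and in Cep85 and Nr0b2 both are of like size; none passed the adjusted threshold in labelled livers.

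Some further genes had sizeable labelled differences that passed neither by themselves nor in their change from wild-type livers. The adjusted p of the change was 0.578 for C9, 0.18 for Abcc3, 0.127 for Insrr and 0.0993 for Cox8b. The terminal complement component C9 was at 3.25 and 4.77 in labelled males and 1.53 and 1.53 in labelled females (2.48 ± 0.46, adjusted p = 0.276), with 7.86 and 7.25 in wild-type males and 6.71 and 5.77 in wild-type females. C8b, its partner in the membrane attack complex, differed by 1.28 ± 0.40 in labelled and 1.42 in wild-type livers. C6 was among the lost genes (3.36 in wild-type, 0.58 ± 0.32 in labelled livers). Abcc3, an exporter of bile acids and conjugates, was at 3.77 and 3.14 in labelled males and 2.16 and 2.69 in labelled females (1.03 ± 0.23, adjusted p = 0.437). Insrr, an insulin receptor relative, was below background in all wild-type livers and at 0.38 and -0.79 in labelled males and 2.31 and 2.30 in labelled females (-2.51 ± 0.41, adjusted p = 0.164). Cox8b, a cytochrome oxidase subunit of muscle and brown fat, was at 0.52 and -0.95 in labelled males and 3.59 and 2.20 in labelled females (-3.11 ± 0.56, adjusted p = 0.252).

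Gene lists, written from general knowledge with earlier results of these arrays known, are described by their counts and medians. Over all autosomal genes 3.79% were called in wild-type and 0.032% in labelled livers, and 4.85% had an unadjusted p under 0.05 in labelled livers, so a labelled count of 0 is also what most lists of this size would show. Of 58 measured genes known as female-biased, 42 were higher in females and 0 in males in wild-type livers, and 0 were called by limma in either direction in labelled livers, with 32 lost. At an unadjusted p under 0.05, 7 of the 58 differed in labelled livers, 3 higher in males and 4 in females. Their median was -2.82 in wild-type and 0.04 in labelled livers, against 0.05 and 0.02 over all autosomal genes. Of 44 known male-biased genes, 28 differed in wild-type livers, 27 toward males and 1 toward females. In labelled livers 0 were higher in males and 1, Susd4, in females. At the unadjusted p it was 11 and 2. The male-biased median fell from 1.72 to 0.26. Of the 44, 36 were higher in labelled males, beside 54.5% of all autosomal genes. Against the mean of the labelled females, 36 (81.8%) were higher in male replicate 3, beside 54.4% of all autosomal genes. In male replicate 4 it was 28 (63.6%), beside 52.6%.

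By enzyme family, beside those shares of 3.79% and 0.032%, 19 of 67 drug-metabolising cytochromes P450 differed in wild-type livers (7 higher in males, 12 in females) and 0 in labelled livers by limma (6 at an unadjusted p under 0.05), with 13 lost. Of 17 sulfotransferases 8 were higher in wild-type females and 0 differed in labelled livers (2 at the unadjusted p, medians -1.34 and -0.04). Of 14 acyl-CoA thioesterases and acyltransferases 5 were higher in wild-type females and 0 differed in labelled livers, also at the unadjusted p. Among the organic ion transporters, 6 of 25 differed in wild-type livers and 4 were lost. Among 11 major urinary proteins 1, Mup20, was called in wild-type livers and 0 in labelled livers (0.07 ± 0.20 for Mup20), while Mup3 was at 9.41 and 9.12 in labelled males and 8.24 and 8.60 in labelled females (0.84 ± 0.16, adjusted p = 0.285). With 1 array left out at a time the labelled difference of Mup20 ran from -0.18 to 2.02. Mup20 has 2 probes on the array, and the brightest was picked anew in each fit. The probe used above was at 7.34 and 6.85 in labelled males and 6.85 and 7.19 in labelled females. Those levels cannot give 2.02 with 1 array left out, so that value came from the other probe. The 2 probes thus disagree on the size of the difference. Of 32 bile acid genes 5 differed in wild-type livers and 1, Slc10a2, in labelled livers.

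Of 44 growth hormone signalling genes, 13 differed in wild-type livers (7 toward males, 6 toward females), and 0 were called by limma in labelled livers (5 at an unadjusted p under 0.05). The lost ones were Cux2, Prlr, the prolactin receptor (-2.98 in wild-type, -0.42 in labelled livers), and Onecut1, a liver transcription factor (2.53 and 0.13). Socs2 and Cish, feedback inhibitors induced by STAT5, were not settled. Socs2 was 3.34 and 3.58 in wild-type males, 0.97 and 0.24 in wild-type females, 4.31 and 3.23 in labelled males and 3.80 and 2.90 in labelled females. Cish was 3.97 and 2.87 in wild-type males, 0.77 and -1.17 in wild-type females, 1.65 and 1.63 in labelled males and 2.17 and 1.52 in labelled females. Labelled females overlapped labelled males in both genes, at levels above wild-type females.

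**Figure D5:**
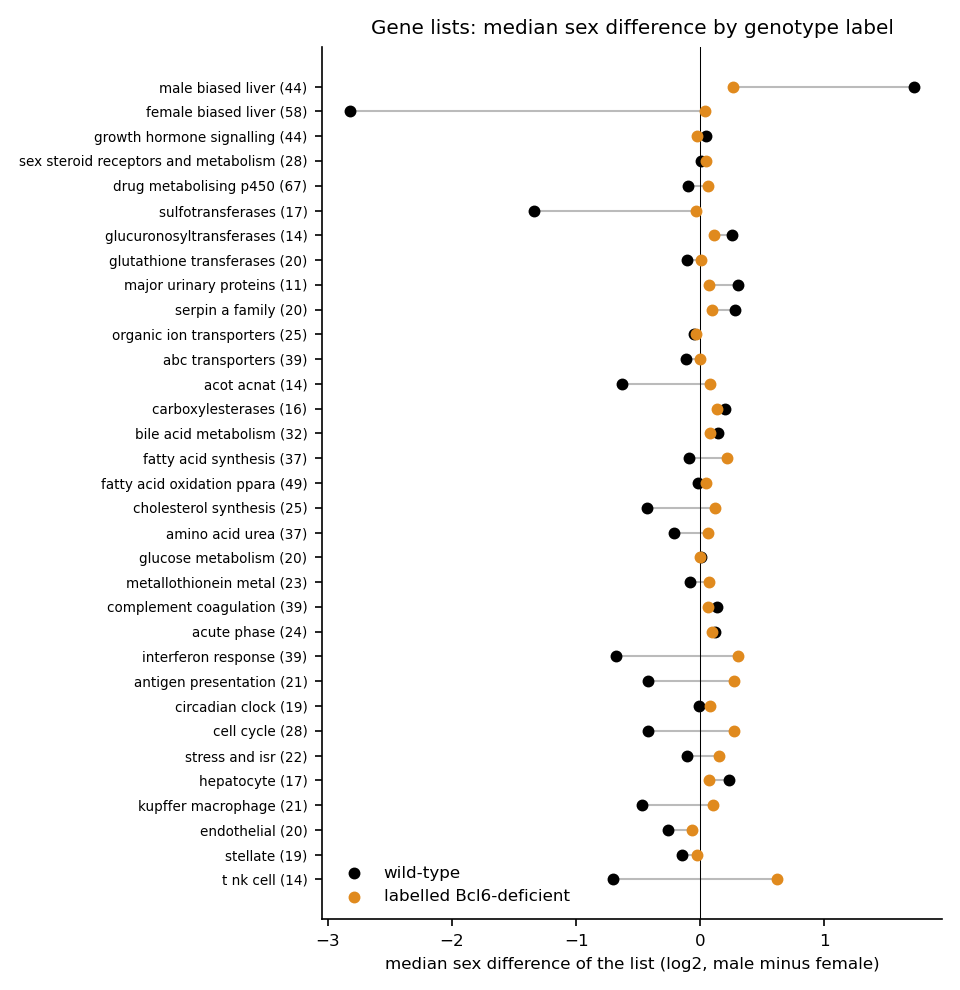
Median sex difference (log2, male minus female) of each gene list with 10 or more measured autosomal members, in wild-type livers (black) and in livers labelled Bcl6-deficient (orange), with the number of members in parentheses. The medians of known female-biased genes (-2.82 and 0.04) and known male-biased genes (1.72 and 0.26) moved toward 0, and those of interferon response genes (-0.68 and 0.31) and T and natural killer cell markers lie on opposite sides of 0.

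Interferon response genes, which act in antiviral defence, leaned the other way in labelled livers. Of 39, 15 were higher in wild-type females and 0 in wild-type males, and 8 of these were lost (Ifit1, Ifit3, Isg15, Igtp, Gbp3, Gbp6, Xaf1 and Rtp4). In labelled livers limma called 0 of the 39, but 37 were higher in males (54.5% of all autosomal genes were), with a median of 0.31 against -0.68 in wild-type livers, and 15 had an unadjusted p under 0.05 (4.85% of all autosomal genes had). Igtp was at 4.37 and 4.75 in labelled males and 3.81 and 3.89 in labelled females (0.71 ± 0.20, adjusted p = 0.691), and Cxcl9, an interferon-induced chemokine, at 2.30 and 3.85 and at 1.73 and 1.65. Most lists of immune cell markers were higher in labelled male replicate 4 than in replicate 3. Against the mean of the labelled females, the median of the interferon list was 0.24 in male replicate 3 and 0.38 in male replicate 4. That of 14 T and natural killer cell markers was 0.262 and 0.997, that of 8 neutrophil markers 0.36 and 0.68, that of 21 Kupffer cell and macrophage markers -0.02 and 0.41, and that of 21 antigen presentation genes 0.07 and 0.42. That of 8 B and plasma cell markers was 0.16 and 0.05, the other order. Cd74 was at 3.38 and 4.94 in labelled males and 3.48 and 3.36 in labelled females, so that 1 male liver stood apart. The summed level of T and natural killer cell markers was 3.58 and 4.12 in labelled males and 3.17 and 3.34 in labelled females, that of Kupffer cell markers 7.87 and 8.33 and 7.98 and 7.91, and that of hepatocyte markers 13.3 and 13.2 and 13.2 and 13.1. Their part in the interferon result was not tested. In male replicate 3 alone, 38 of 39 interferon genes were higher than the female mean, as were 13 of 14 T and natural killer cell markers, 8 of 8 neutrophil markers, 9 of 21 Kupffer cell markers and 54.4% of all autosomal genes.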

How the data were processed

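RNA of 8 mouse livers was measured on 1-colour Agilent arrays. The deposited values are on the log2 scale and matched log2 of the deposited processed signal intensity (an intensity in which Feature Extraction 11.5.1.1 had already subtracted background, per the file headers; 9.1.3.1 per the submitters' processing notes) minus the 75th percentile of each array. These log2 values were used unchanged, and the deposited intensity files gave the background flags. Probes were named by RefSeq accession (32989 of 56605), 4450 more were placed by array coordinates, and the brightest kept probe stood for a gene. limma 3.58.1 in R 4.3.3 fitted 4 group means over 8 arrays with a mean-variance trend (4 residual and 4.77 prior degrees of freedom), with Benjamini-Hochberg adjustment over 23870 genes. Named genes were those called in labelled livers, the 10 lost genes a direction with the largest wild-type difference, those that turned or were new, up to 4 members a list by size of difference, and common sex-bias markers, and some genes that meet this rule are not reported here. The members and lists were chosen with earlier results of these data known, and Cep85, Cib3, Clstn3, Cox8b, Dreh, Gbp3, Gbp6, Gm12718, Ifit1, Ifit3, Insrr, Isg15, Lgr5, Onecut1, Prlr, Rcan2, Rtp4, Smo, Xaf1, Zfp809 and Zfp949 were chosen after their values were seen. The fit was tested on simulated data. Alternatives changed the normalization, the filter, the variance model, the probe rule, the arrays fitted and the replicate block. Figures used Python 3.11.15 and matplotlib 3.10.9.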

Additional observations from a re-analysis of the deposited data

Results flagged for a closer look

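The sex difference of 141 autosomal genes changed with the genotype label by the limma interaction test at an adjusted p under 0.05. The values here are the labelled sex difference minus the wild-type one, on the log2 scale. Among male-biased genes with the largest wild-type difference it was -4.74 in Nat8f5, -5.99 in Serpina4-ps1, -4.45 in Gm4956, -5.38 in Capn8 (not well above background in either labelled sex or in wild-type females, so the value is not a measured size), -4.10 in Elovl3, -4.27 in Tff3, -3.83 in Nat8, -4.06 in Cyp2d34, -4.09 in Lama3 and -3.30 in 4930432K21Rik. Among female-biased ones it was 11.49 in Cyp2b13, 10.36 in A1bg, 11.05 in Sult2a2, 10.43 in Sult2a6, 10.24 in Slc22a26, 9.45 in Sult3a1, 8.90 in Cyp3a44, 8.75 in Hao2 and 7.26 in Cyp2b9. In these female-biased genes other than Cyp2b9 the wild-type males were not well above background, so the sizes depend on dim signals. Among the male-biased genes, Nat8f5, Elovl3, Cyp2d34 and Lama3 were not well above background on every labelled array, so their sizes depend on dim signals too. Of the genes that differed in labelled livers, the change was -3.68 in Susd4, -2.40 in Bmp7 and -1.87 in Fndc5.

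Outside the autosomal genes, 4 genes placed on no chromosome in the tables used differed by sex in labelled livers. A probe named XIST differed by -10.8 and AK053394 by -2.74, both higher in females, and ENSMUST00000185837 by 5.12 and BX528370 by 6.45, both higher in males. All 4 had the same sign in wild-type livers.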

How the results depend on the processing

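Of single-gene results over the alternatives tried, 1663 stayed on their side of the threshold or within the spread, 93 lost it, 7 gained it, 57 values without a test moved beyond the spread, and 0 reversed. Against 5 labelled calls, 592 wild-type calls, 141 changes, 130 losses, 0 kept and 3 labelled calls among listed genes (list calls), dropping the background filter gave 1, 331, 61, 59 and 1 list call, and dropping the variance trend 1, 320, 68, 65 and 1. The mean of all probes gave 3 labelled calls and 1 list call, the 4 compared arrays alone 2 labelled calls, 398 wild-type calls and 1 list call, and a required 2-fold difference 342 wild-type calls. Median scaling kept 1 gene. The wild-type unadjusted p, chosen after seeing the data, gave 61 labelled calls and 8 kept. Leaving out 1 array at a time gave 1 to 21 labelled calls, 270 to 531 wild-type calls, 64 to 150 changes, 61 to 146 losses, 0 to 2 kept and 1 to 5 list calls. The 21 came without labelled male replicate 3 and shared 3 genes with the 5 (Susd4, Slc10a2 and Fndc5); without wild-type male replicate 3 or 4 there was 1. Wild-type calls fell to 270, 331 and 336 without wild-type male 3, wild-type male 4 and wild-type female 4. Changes fell to 64, 65, 81 and 85 without labelled female 3, labelled female 4, wild-type male 3 and labelled male 4. The difference between replicates 3 and 4 correlated between groups at 0.00608 to 0.32, the highest being between the 2 female groups. All replicates 3 lay in slide row 1 and all replicates 4 in slide row 2. Whether replicate numbers pair the arrays cannot be settled from these values. The replicate block gave 5 labelled calls, 3 of them shared (Susd4, Slc10a2 and Fndc5, with Cox8b and Zfp949 added and Bmp7 among those that ended), 755 wild-type calls, 197 changes, 180 losses and 2 list calls. With 2 arrays a group, a missed threshold does not show equality.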
